A study of Rattus norvegicus with 10 samples.

Results

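The class 3 semaphorins Sema3a, Sema3c, Sema3d and Sema3e and their receptors Nrp1 and Nrp2 were followed across 5 lines of HSC-2, a hepatic stellate cell line from Wistar rats. All probe sets that the platform annotation gives 1 of these 6 symbols alone were taken, which made 8 of the 27520 probe sets tested, or 6 of 13286 genes. Nrp1 and Nrp2 had 2 probe sets each and every semaphorin had 1, and all 8 were above the floor of the deposited values on all arrays. The lines were clones S1, S4 and S5, each a single clone transfected to overexpress the rat microRNA miR-146a, a line transfected with a scrambled control sequence, and the untransfected line. Each line was grown in high-glucose DMEM with serum and antibiotics and sampled at passages 43 and 42, 1 Affymetrix array per passage, 10 arrays in all. Whether the scrambled line is a clone or a pool is not given in the sources used here. The labels do not describe the passages as separate cultures, so the errors below measure the spread between passages of a line, which may be technical, and the number of arrays limits their precision. Overexpression of the microRNA is known from the labels, and its mature form was not measured here. The genes were chosen with their values in the line comparisons known. Their levels and fold changes between clones and control lines, and between the control lines, are therefore descriptions without a test. All clones were set against the same 2 arrays of each control line, so their fold changes share those arrays.

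Class 3 semaphorins are secreted guidance proteins, first known for repelling growing axons, that act on the cytoskeleton and adhesion of many cell types. Sema3a signals mainly through Nrp1 with a plexin of the A family as the signalling partner, Sema3c uses Nrp1 and Nrp2, and Sema3e binds Plxnd1 directly without a neuropilin. Neuropilins also serve as co-receptors of VEGF, and Nrp1 has been described as an enhancer of PDGF and TGF-beta signalling in stellate cells. Secreted class 3 semaphorins are cut by furin-like proprotein convertases, which changes their activity.

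The microRNA that the clones overexpress is shown first, with its seed, bases 2 to 8, in capitals. It is encoded on the minus strand of chr10:28350053-28350074 (GRCr8). Promoters are shown for Sema3e, which was high only on clone arrays, Sema3d, which was low only on untransfected arrays, and Nrp1, which was highest on untransfected arrays. They run from 250 bases before to 50 bases after the annotated start, from RefSeq, build GRCr8, at chr4:21510325-21510624 on the minus strand for Sema3e, chr4:23460922-23461221 on the minus strand for Sema3d and chr19:73256307-73256606 on the plus strand for Nrp1.
rno-miR-146a-5p: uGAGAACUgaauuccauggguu
Sema3e: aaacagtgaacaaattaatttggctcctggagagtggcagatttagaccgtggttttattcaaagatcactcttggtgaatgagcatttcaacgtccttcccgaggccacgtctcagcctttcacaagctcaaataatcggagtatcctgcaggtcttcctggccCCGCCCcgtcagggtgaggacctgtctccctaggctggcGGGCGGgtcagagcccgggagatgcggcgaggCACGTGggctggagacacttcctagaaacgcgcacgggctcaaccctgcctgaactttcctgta
Sema3d: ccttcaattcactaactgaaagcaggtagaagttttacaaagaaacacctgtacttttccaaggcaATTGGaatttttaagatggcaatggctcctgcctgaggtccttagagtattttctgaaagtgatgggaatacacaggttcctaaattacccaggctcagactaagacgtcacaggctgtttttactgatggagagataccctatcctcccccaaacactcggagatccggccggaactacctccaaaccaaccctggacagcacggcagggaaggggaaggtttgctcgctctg
Nrp1: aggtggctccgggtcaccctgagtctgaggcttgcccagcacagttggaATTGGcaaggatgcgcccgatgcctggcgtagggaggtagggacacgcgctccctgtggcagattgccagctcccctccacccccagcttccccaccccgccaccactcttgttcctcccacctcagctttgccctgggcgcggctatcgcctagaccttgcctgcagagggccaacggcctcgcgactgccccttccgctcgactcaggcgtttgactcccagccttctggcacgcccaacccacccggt
In the promoters capitals mark matches to 6 short motifs searched on both strands. The Sema3e window held 1 E-box CACGTG, which 6.42% of 33469 promoters of the same length held, and 2 GC boxes GGGCGG, held by 33.1%. The Sema3d and Nrp1 windows held 1 CCAAT each, on the other strand, as 37.5% of promoters did. The AP-1 motif TGANTCA was in 7.33% of promoters, the TATA box TATAAA in 14.2% and the CRE TGACGTCA in 1.83%, and none of these had a match in the 3 windows. Of the 6 genes 5 had a promoter in the table, and the windows of Sema3c and Nrp2 held none of the 6 motifs. Their GC content was 55.3% for Sema3e, 47.3% for Sema3d, 36.3% for Sema3c, 66.3% for Nrp1 and 53.0% for Nrp2, against a median of 51.7% over all promoters. A match describes the letters only.

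Array medians lay between 97.2 and 103.4 intensity units, and 14.6% of deposited values were at the floor of 20. Of 12 tested stellate cell markers, 6 were above the median gene of the array. The mesenchymal markers Vim, Col1a1, Col1a2 and Col3a1 lay between 17936 and 27458 units on every array and Pdgfrb between 720 and 1666. Acta2, an actin typical of myofibroblasts, ranged from 1124 to 9626 and Des from 86.4 to 187, while Gfap and Reln stayed under 42 and Lrat was at the floor on all arrays. None of the tested markers of endothelium (6 genes), hepatocytes (4), macrophages and leukocytes (4) or biliary epithelium (2) had a median above 280.9 units. Summed endothelial marker intensity was 261 to 315 on clone arrays, 353 to 355 on scrambled and 252 to 321 on untransfected arrays. Summed macrophage and leukocyte marker intensity was 193 to 212 on clone, 229 to 237 on scrambled and 191 to 211 on untransfected arrays. Hepatocyte sums were 271 to 299 on clone, 250.3 to 267 on scrambled and 254 to 315 on untransfected arrays, and biliary sums were 51.6 to 66.4, 49.3 to 51.0 and 44.7 to 52.3. Stellate marker sums did not overlap, at 95340 to 102200 on clone, 87000 to 88510 on scrambled and 102800 to 107500 on untransfected arrays. The part of these sums in the results below was not tested. A lower value in a whole culture can mean fewer cells with the transcript or less of it per cell, and the arrays cannot tell these apart.

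Sema3e, the ligand of Plxnd1, was high in all 3 clones and low in both control lines. At passages 43 and 42 its probe set 1379382_at had intensities of 819 and 288 (S1), 1235 and 872 (S4), and 1017 and 519 (S5), against 111 and 93.9 in the scrambled line and 98.7 and 91.5 in the untransfected line. All 6 clone arrays lay above all 4 control arrays, and the control lines overlapped. Its log2 fold change against the scrambled line was 2.25 in S1, 3.35 in S4 and 2.83 in S5 (SE 0.48 each), and against the untransfected line 2.35, 3.45 and 2.93 with the same SE. The scrambled line was 0.10 above the untransfected line. In the order of line means S4 came first, then S5, then S1, and neighbouring clones overlapped. The spread was widest in S1, where leaving out passage 43 gave a log2 fold change of 1.60 against the untransfected line and leaving out passage 42 gave 3.11.

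Sema3d, which binds neuropilins, and Sema3a, the founding axon repellent of the class, had another pattern, with all transfected lines high and the untransfected line low. Sema3d (1397335_at) was at 1326.5 and 851 (S1), 1239.8 and 896 (S4), 1180.2 and 756 (S5), and 978 and 1442 in the scrambled line, against 50.6 and 119 in the untransfected line. The clones were 3.77, 3.76 and 3.60 above the untransfected line on the log2 scale in S1, S4 and S5 and the scrambled line was 3.93 above it (SE 0.44 each), a fold of 13.7, 13.6, 12.1 and 15.3. Against the scrambled line the clones were at -0.16, -0.17 and -0.33, within 1 SE of 0, and the arrays overlapped. The untransfected arrays differed from each other, so that the fold change of the scrambled over the untransfected line was 4.55 without the untransfected array of passage 42 and 3.31 without that of passage 43. The same omissions gave 4.22 to 4.39 and 2.98 to 3.15 for the clones.

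Sema3a (1387723_at) was at 240.3 and 196 (S1), 242 and 188 (S4), 209 and 187 (S5), and 166 and 228 in the scrambled line, against 34.9 and 41.4 in the untransfected line. Every transfected array was above both untransfected arrays, and clones and scrambled line overlapped. The log2 fold change against the untransfected line was 2.51, 2.49 and 2.38 in S1, S4 and S5 and 2.35 in the scrambled line (SE 0.20 each). Against the scrambled line the clones stood at 0.16, 0.14 and 0.03. The sign of these small differences turned when the scrambled array of passage 43 was left out, to -0.07, -0.09 and -0.20.

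Sema3c, a ligand of both neuropilins, was graded over the lines. Probe set 1376319_at was at 7582 and 4438 (S1), 5822 and 2989 (S4), and 7182 and 4437 (S5), against 2561 and 3151 in the scrambled line and 2502 and 1516 in the untransfected line. Arrays of S1 and S5 were above all control arrays, while the S4 array of passage 42 lay inside the range of the scrambled line. The log2 fold change against the scrambled line was 1.03, 0.55 and 0.99 in S1, S4 and S5, and against the untransfected line 1.57, 1.10 and 1.54 (SE 0.42 each). The scrambled line was 0.54 above the untransfected line, and its arrays did not overlap with it.

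**Figure D1:**
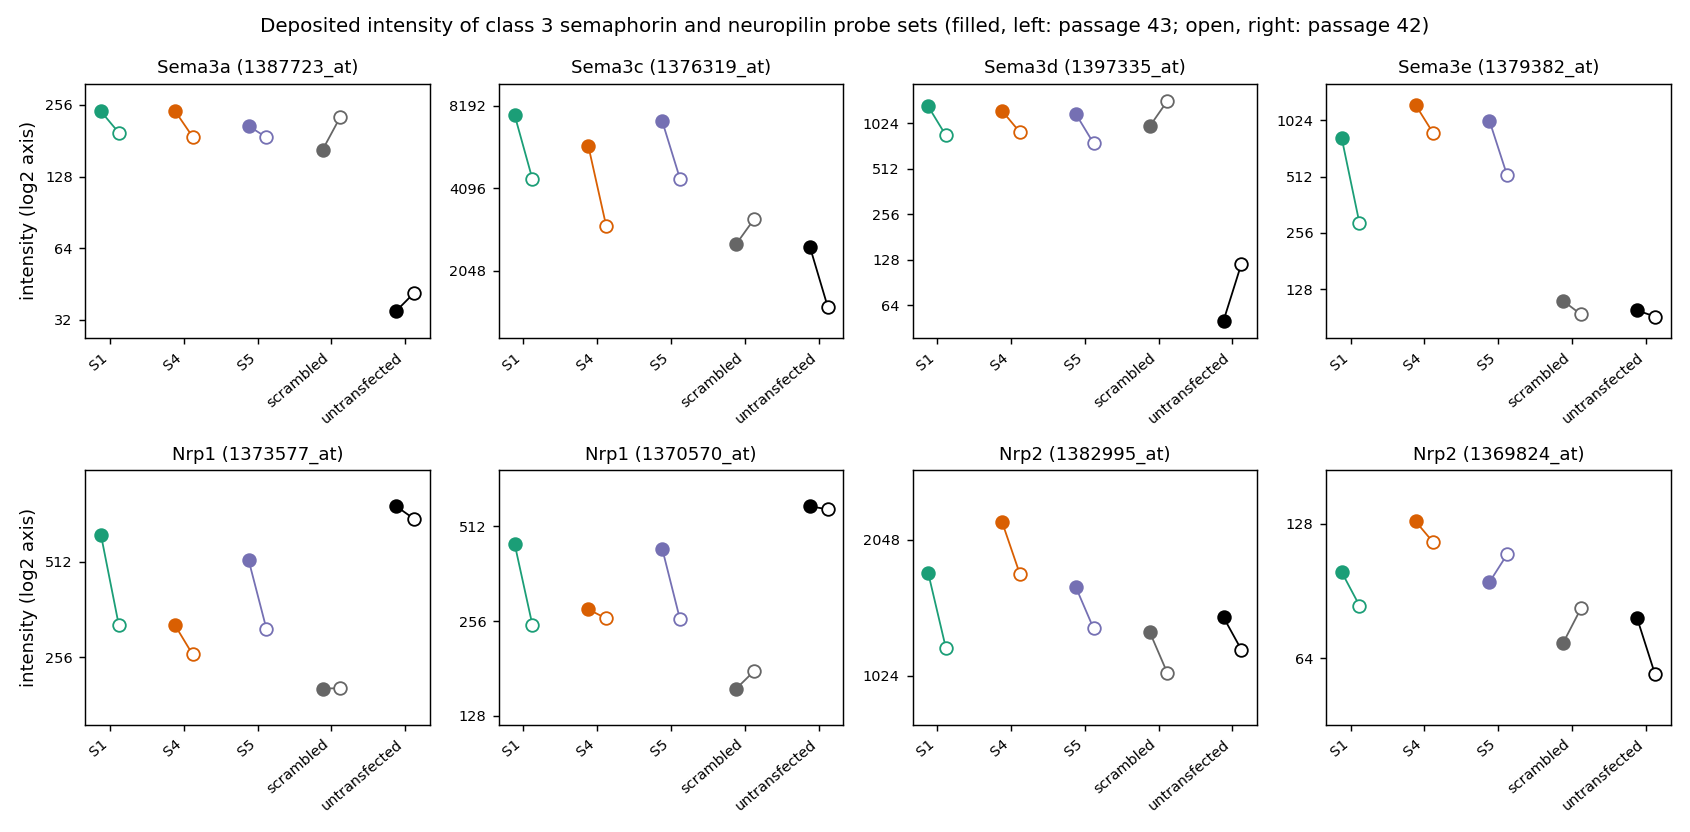
Deposited intensity of the 8 probe sets on a log2 axis, 1 panel per probe set, with 2 arrays per line joined by a line (filled and left, passage 43; open and right, passage 42). Sema3e is high on the 6 clone arrays alone, Sema3a and Sema3d are low on the 2 untransfected arrays alone, and Nrp1 is highest in the untransfected and lowest in the scrambled line.

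Nrp1, the receptor of Sema3a and a VEGF co-receptor, had another order of lines, highest in the untransfected line, lowest in the scrambled line and with the clones between them. Probe set 1373577_at gave 622 and 324 (S1), 323.5 and 261 (S4), and 518 and 315 (S5), against 203.6 and 204.1 in the scrambled line and 767 and 701 in the untransfected line. No clone array reached the arrays of either control line, and the clones overlapped among themselves. The log2 fold change was 1.14, 0.51 and 0.99 against the scrambled line and -0.71, -1.33 and -0.86 against the untransfected line (SE 0.32 each), while the scrambled line was at -1.85 against the untransfected line. Relative to the clones, Nrp1 was thus lower in 1 control line and higher in the other. Leaving out the S1 array of passage 42 brought S1 to -0.24 against the untransfected line. The stellate marker sums had the same order of lines, highest in the untransfected and lowest in the scrambled line. Most of their intensity comes from Vim, Col1a1, Col1a2 and Col3a1, so they say little about the dimmer stellate markers.

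The second Nrp1 probe set, 1370570_at, kept this order of control lines and clones. It was at 451 and 249 (S1), 279 and 261 (S4), and 434 and 259 (S5), against 156 and 177 in the scrambled line and 593 and 579.6 in the untransfected line. Its log2 fold change was 1.01, 0.70 and 1.01 against the scrambled line and -0.81, -1.12 and -0.81 against the untransfected line (SE 0.30 each), with the scrambled line at -1.82 against the untransfected line. On both probe sets S4 had the lowest mean of the clones.

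Nrp2, the receptor shared by Sema3c and class 3 semaphorins such as Sema3f, varied less. Its brighter probe set, 1382995_at, was at 1728 and 1178 (S1), 2241.5 and 1722 (S4), and 1606 and 1302 (S5), against 1279 and 1037 in the scrambled line and 1377 and 1169 in the untransfected line. Only S4 lay above all control arrays there. The log2 fold change of S4 was 0.77 against the scrambled and 0.63 against the untransfected line (SE 0.23 each), and those of S1 and S5 ranged from 0.17 to 0.33. The dimmer probe set, 1369824_at, gave 99.7 and 84.0 (S1), 129.6 and 116 (S4), and 94.8 and 109 (S5), against 69.4 and 82.8 in the scrambled line and 78.7 and 59.2 in the untransfected line. There all clone arrays were above all control arrays, and S4 again had the highest mean, with log2 fold changes of 0.70 and 0.85 against the scrambled and the untransfected line (SE 0.17 each).

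Of the 8 probe sets, 2 (Sema3e and Nrp2 1369824_at) had all 6 clone arrays above the 4 control arrays, where 4.06% of all tested probe sets did, and 0 had them all below, where 3.44% did. With all 8 arrays of transfected lines set against the 2 untransfected arrays, 3 probe sets (Sema3a, Sema3c and Sema3d) lay above, with 7.18% of all probe sets, and 2 (both of Nrp1) below, with 9.30%. These splits are those that the genes were chosen on, so the counts describe them only.

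**Figure D2:**
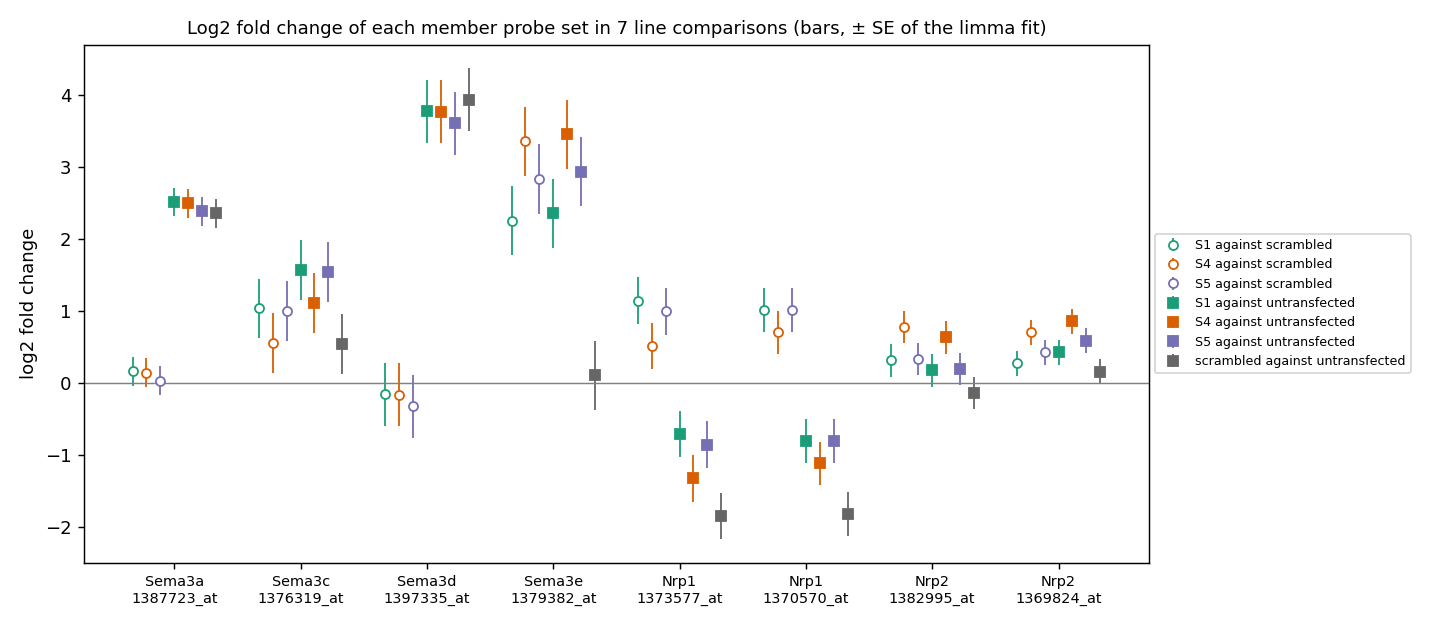
Log2 fold change of each probe set in 7 comparisons of lines, as points with the SE of the fit (open circles, clones against scrambled; filled squares, clones and scrambled against untransfected). For Sema3a and Sema3d the circles lie near 0 and the squares between 2.35 and 3.93, for Sema3e all clone points lie between 2.25 and 3.45, and for Nrp1 circles and squares lie on opposite sides of 0.

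The choice of genes named no contrast among the clones and none between passages, and these were tested over all probe sets. None of the 8 probe sets passed the test for differences among the 3 clones (limma F test, adjusted p = 1 for each), and 0 had an unadjusted p under 0.05. Blocking on passage number, 0 passed and 2 had an unadjusted p under 0.05 (limma, lowest adjusted p = 0.529, for Nrp2 1382995_at). The share of all probe sets at that unadjusted threshold was not counted. Without the block the F test called 9 of 27520 probe sets, 0.0327%. The largest difference between clones was that of Sema3e, 1.09 higher in S4 than in S1 on the log2 scale. The F test of Sema3e over the 3 clones had an unadjusted p = 0.137, and 0.0263 with the block on passage number.

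Between passages, with line as a block, 1 of the 8 probe sets passed, against 5.52% of all probe sets. Nrp2 1382995_at rose by 0.36 on the log2 scale at passage 43 over passage 42 (SE 0.066, limma adjusted p = 0.0292) and was higher in 5 of 5 lines. The call was lost on leaving out any array of a clone or of the scrambled line, with adjusted p = 0.0657 to 0.125, and it held without either untransfected array (adjusted p = 0.0373). Without any 1 of the clone arrays 0 of all probe sets passed between passages, so that loss is not particular to Nrp2. Sema3e was at 0.67 (SE 0.20, limma adjusted p = 0.102), also higher in 5 of 5 lines, Sema3c at 0.57 (SE 0.17, limma adjusted p = 0.108) and Nrp1 1373577_at at 0.42 (SE 0.14, limma adjusted p = 0.140), each higher in 4 of 5. Without either scrambled array Sema3c was at 0.79 and passed (adjusted p = 0.0266).

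Within the clones the passages ran 1 way for nearly all members. In 7 of the 8 probe sets the value at passage 43 was above that at passage 42 in all 3 clones, where 22.6% of all probe sets did this. The mean change over the clones was 0.99 for Sema3e (SE 0.18, limma adjusted p = 0.0644), 0.81 for Sema3c (SE 0.19, adjusted p = 0.102), 0.66 and 0.56 for the Nrp1 probe sets (adjusted p = 0.0712 and 0.145), 0.58 for Sema3d (SE 0.13, adjusted p = 0.103), 0.41 for Nrp2 1382995_at (adjusted p = 0.0749) and 0.27 for Sema3a (adjusted p = 0.183). None passed after adjustment over all probe sets, of which 1.16% did. An unadjusted p under 0.05 was found for 7, and the share of all probe sets at that threshold was not counted. This contrast of passages within the clones was chosen after the data were seen. Sema3a and Sema3d were up in all 3 clones and down in both control lines, a combination that 3.24% of all probe sets had in this form or with a level control. The change of the clones minus that of the control lines passed for 0 of the 8 probe sets, where 0.0182% of all did. It was 1.48 for Sema3d (SE 0.21, limma adjusted p = 0.277). In this limma test 5 had an unadjusted p under 0.05, and the share of all probe sets there was likewise not counted.

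**Figure D3:**
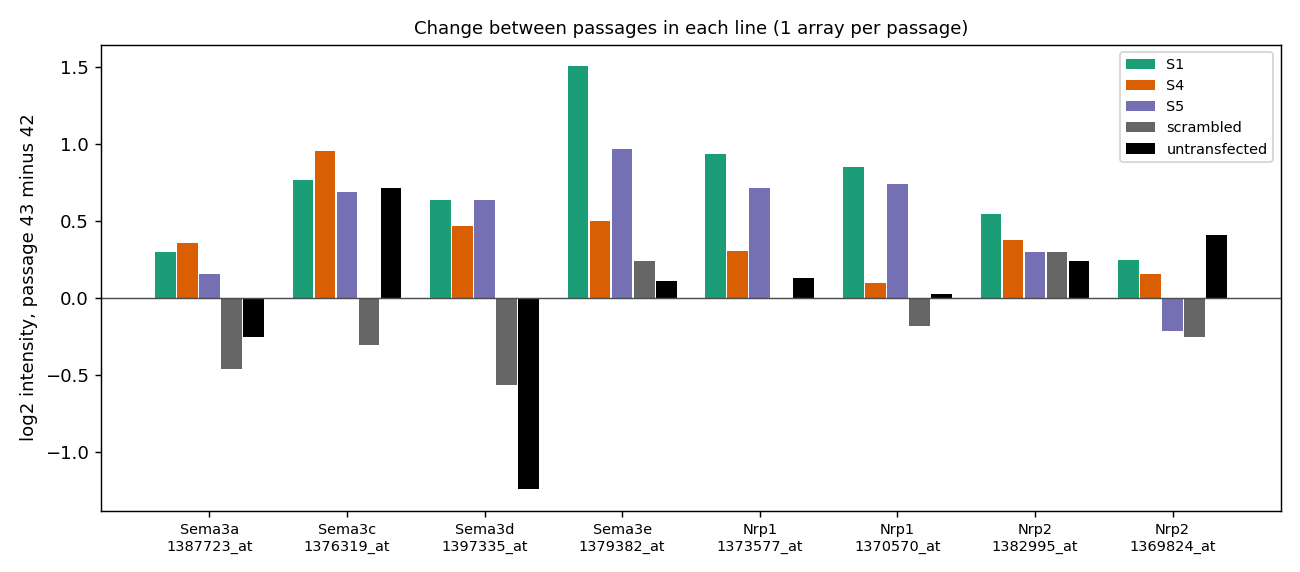
Log2 intensity at passage 43 minus that at passage 42 in each line, as bars from 0, with 1 array per passage and so no error bar. Bars of the 3 clones point up for 7 of the 8 probe sets, and for Sema3a and Sema3d the bars of both control lines point down.

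The 4 semaphorin genes lie on rat chromosome 4 in the order Sema3c, Sema3e, Sema3a, Sema3d, while Nrp1 is on chromosome 19 and Nrp2 on chromosome 9. In the GRCr8 gene order the stretch from Sema3c to Sema3d holds 43 genes, 20 of them protein-coding, and 39 are not members. Only 3 of those 39 were tested here: Hgf, the hepatocyte growth factor, Cacna2d1, a calcium channel subunit, and Pclo, a presynaptic scaffold protein. Cacna2d1 was at -0.82 in the scrambled against the untransfected line (SE 0.20, limma adjusted p = 0.0502) and passed there with the replicate block (adjusted p = 0.0388), where Sema3a and Sema3d were at 2.35 and 3.93. No other comparison of the 3 genes passed in either fit. Pclo lay between -0.19 and -0.07 in all 7, and Hgf between -0.33 and 0.04, with arrays of 21.7 to 29.7 units, close to the floor of 20. The other 36 genes of the stretch were not analysed here.

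**Figure D4:**
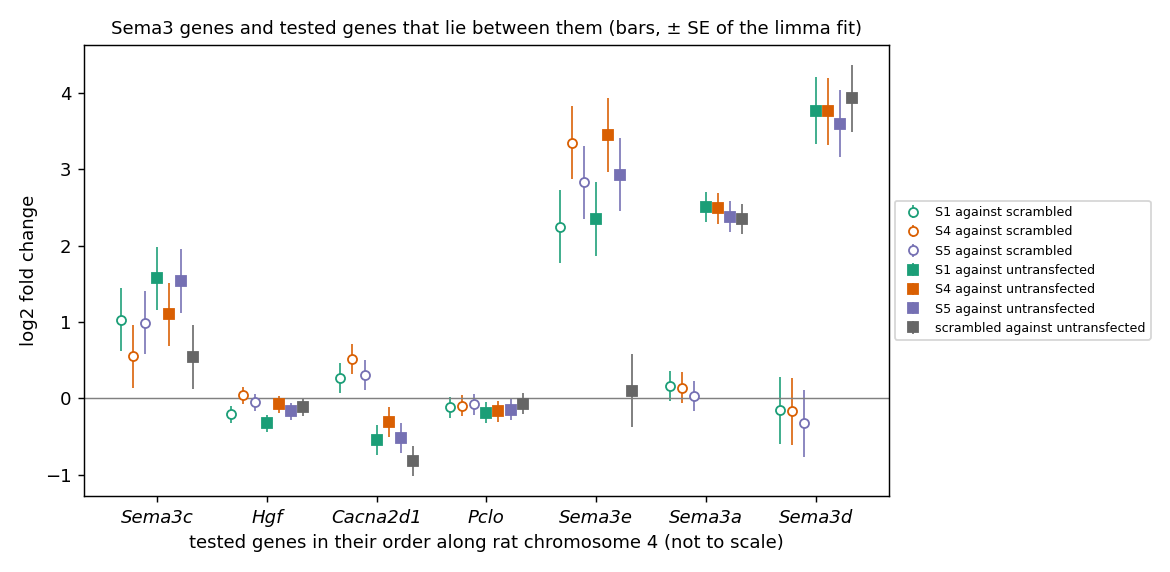
Log2 fold change with SE in 7 line comparisons for the 7 tested genes of the stretch, in chromosome order and not to scale. Hgf, Cacna2d1 and Pclo lie between -0.82 and 0.52, while Sema3e, Sema3a and Sema3d reach 2.25 to 3.93 in the comparisons where they are high.

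Genes with the most similar pattern were sought among 2389 genes with a range of at least 1 log2 unit, by Pearson correlation of log2 level over the 10 arrays. The arrays come from 5 lines and share them with the member, so r is a description. Ackr3, the scavenging receptor of Cxcl12, came first for both Sema3d (r = 0.987) and Sema3a (r = 0.973). Its mean log2 level was 12.30, 12.26 and 12.12 in S1, S4 and S5 and 12.01 in the scrambled line, against 8.03 in the untransfected line. Sema3d was followed by LOC100910973 (r = 0.976) and Spry2, an inhibitor of receptor tyrosine kinase signalling (r = 0.974), and Sema3a by Cadm1, an adhesion molecule (r = 0.972).

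For Sema3e the closest genes were Ptgis, the prostacyclin synthase (r = 0.986), Ddah2, an enzyme of dimethylarginine breakdown (r = 0.982), and Dock8, an exchange factor of small GTPases (r = 0.974). Ptgis had mean log2 levels of 9.16, 9.59 and 9.27 in S1, S4 and S5, against 7.46 in the scrambled and 7.24 in the untransfected line. Sema3c was closest to Tmem98 (r = 0.966), the Wnt receptor Fzd6 (r = 0.963) and B3glct, a glycosyltransferase (r = 0.956). Nrp1 was closest to Ano1, a calcium-activated chloride channel (r = 0.963), the kinase Dmpk (r = 0.943) and the LIM protein Fhl1 (r = 0.939), all highest in the untransfected and lowest in the scrambled line. Likeness was weaker for Nrp2, with Mfap4, a microfibril protein, at r = 0.940. Cpq, a peptidase, was at r = 0.880 and the heparan sulfate proteoglycan Sdc4 at r = 0.876. Mfap4 had a mean log2 level of 6.37 in S4 and of 4.61 to 5.08 in the other lines, close to the floor of 4.32.

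The signalling partners were examined in 4 lists of 56 tested genes. The lists were chosen with earlier results of these data known. Their counts in the line comparisons, here and below, are therefore a description beside the shares of all genes. In S1, S4 and S5, 9, 7 and 8 of the 56 passed the limma test against the scrambled line, where 5.0%, 4.26% and 4.11% of all genes passed, and 5, 8 and 6 against the untransfected line, where 4.75%, 3.80% and 3.83% did. Between the scrambled and the untransfected line 12 passed, with 6.25% of all genes. The list medians lay between -0.11 and 0.05 in the 7 comparisons, and those of all genes between -0.02 and 0.00. None of the 56 passed the test for differences among the clones (limma F test, lowest adjusted p = 0.712, 1 gene with an unadjusted p under 0.05), where 0.0151% of all genes passed. The share of all genes at the unadjusted threshold was not counted. A replicate block on the passage number brought the counts to 13, 11 and 11 against the scrambled line. They were 8, 10 and 8 against the untransfected line and 17 between the control lines, and every call without the block was kept. Over all probe sets the block brought the calls from 1153, 1002 and 948 to 2129, 1906 and 1845 against the scrambled line. Against the untransfected line they went from 1205, 970 and 999 to 2439, 1904 and 2103, and between the control lines from 1679 to 3602. Calls thus rose over the whole array as well, and the share of all genes with the block was not counted. Between passages 4 of the 56 passed, where 6.99% of all genes did. Leaving out any 1 of the 6 clone arrays left 0 of all probe sets called, so the loss of these 4 calls is not particular to them. Leaving out any 1 of the 6 clone arrays, either scrambled array or the untransfected array of passage 43 moved at least 1 count by over 1.5 times, down to 1 for each clone against the untransfected line, as the closing section gives.

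Of the other class 3 semaphorins, plexins and co-receptors, 16 were tested. In each of the 6 comparisons of a clone with a control line 2 of these were lower and 0 higher. Of all genes, 2.39%, 1.86% and 1.93% were lower in S1, S4 and S5 against the scrambled line and 2.70%, 2.05% and 2.19% against the untransfected line. Plxnd1, the receptor of Sema3e, fell in the clones against the untransfected line, with log2 fold changes of -0.72, -0.94 and -0.82 in S1, S4 and S5 (SE 0.13 each, limma adjusted p = 0.0233, 0.00829 and 0.0165), and in the scrambled line, at -0.60 (limma adjusted p = 0.0380). Its intensity at passages 43 and 42 was 160.0 and 177 (S1), 147 and 142 (S4), 161 and 154 (S5), and 199 and 170.1 in the scrambled line, against 306 and 253 in the untransfected line. Cntn2, an axonal adhesion molecule, fell against the untransfected line in the same comparisons, at -2.34, -2.50 and -2.55 in the clones and -2.31 in the scrambled line (highest limma adjusted p = 0.000415). Cntn2 was at 26.3 to 35.4 units on clone arrays and at 35.7 and 35.0 in the scrambled line, against 173 and 178 in the untransfected line. The lower values are close to the floor of 20, which limits the size of its fold changes. Both genes were thus low in every transfected line, the scrambled one included.

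Plxna4, a plexin that signals for Sema3a, and Nrcam, an adhesion molecule that associates with neuropilins, differed between the scrambled line and all others tested against it. Plxna4 rose there by 1.26 over the untransfected line (SE 0.29, limma adjusted p = 0.0469) and fell in the clones against the scrambled line, at -1.96, -1.95 and -2.46 in S1, S4 and S5 (highest limma adjusted p = 0.0114). Against the untransfected line S5 was at -1.20 (limma adjusted p = 0.0694, and adjusted p = 0.0189 with the replicate block). Its second probe set passed in the same 4 comparisons. Nrcam rose by 1.11 in the scrambled over the untransfected line and fell in the clones against the scrambled line, at -1.43, -1.78 and -1.62 (highest limma adjusted p = 0.0177). Nrcam was at 24.1 to 35.0 units on clone arrays, close to the floor of 20, against 86.3 and 92.6 in the scrambled line. The untransfected line was at 47.2 and 36.4. The 2 dimmer Nrcam probe sets did not pass in any comparison.

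Plxna2 rose by 0.54 in the scrambled over the untransfected line (limma adjusted p = 0.0300), as did Neto2, a transmembrane protein with CUB domains like those of neuropilins, by 0.92 (limma adjusted p = 0.0379). S4 was at 0.50 over the untransfected line for Plxna2 (limma adjusted p = 0.0514, and 0.0329 with the replicate block). Its 2 dimmer probe sets passed in no comparison and were at -0.11 and 0.50 in the scrambled against the untransfected line. The second Neto2 probe set did not pass. Plxna1 and Plxna3 did not pass, with log2 fold changes from -0.19 to 0.41 over the 7 comparisons. Among the other class 3 semaphorins, Sema3b, Sema3f and Sema3g passed in no line comparison, although Sema3b in S4, at 0.94 and 0.84 against the scrambled and the untransfected line (limma adjusted p = 0.402 and 0.409), passed with the replicate block (adjusted p = 0.0293 and 0.0421). Sema3f, a ligand of Nrp2, was at 0.60 to 0.81 in the 6 comparisons of clones with control lines (lowest limma adjusted p = 0.383). Its second probe set was lower there, at 0.20 to 0.30, and did not pass. Between passages Sema3b rose by 0.76 (limma adjusted p = 0.0189) and Sema3f by 0.69 (limma adjusted p = 0.0401), 2 of the 4 list genes called there. Both calls were lost without any 1 of the clone arrays, as were those of all probe sets. The second Sema3f probe set was at 0.35 between passages (limma adjusted p = 0.0843).

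Semaphorins of classes 4 to 7, mostly membrane proteins, had 8 tested genes, of which Sema5a alone passed in a line comparison. It rose by 1.32 in the scrambled line (limma adjusted p = 0.0266) and by 1.31 in S4 (limma adjusted p = 0.0361) over the untransfected line. S1 was at 0.94 (limma adjusted p = 0.0900, and adjusted p = 0.0382 with the replicate block). Its second probe set passed in all 4 transfected lines over the untransfected line, at 0.46 to 1.03, and was lower in S1 and S5 than in the scrambled line. Its 2 dimmest probe sets passed in no comparison and lay between -0.18 and 0.11 in all 7. Sema6a passed with the replicate block alone, in S1 against the untransfected line (adjusted p = 0.0485). Against the scrambled line the medians of this list were -0.35, -0.26 and -0.24 in S1, S4 and S5, with 0 of 8 genes past the threshold, and Sema4d and Sema6d were at the floor on all arrays.

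Of the 8 VEGF ligands and receptors, Vegfd, a ligand of lymphatic growth, fell against the scrambled line, at -2.17, -2.40 and -2.10 in S1, S4 and S5 (highest limma adjusted p = 0.000631) and rose by 1.64 in the scrambled over the untransfected line (limma adjusted p = 0.00197). S4 also fell against the untransfected line, at -0.76 (limma adjusted p = 0.0483). Its intensity was 70.8 to 105 on clone arrays, against 402 to 463 on scrambled and 132 to 145 on untransfected arrays. Flt1, a VEGF receptor, fell in S4 and S5 against the scrambled line, at -1.36 and -1.13 (limma adjusted p = 0.00330 and 0.00871), and in S4 against the untransfected line, at -0.81 (limma adjusted p = 0.0322). With the replicate block it also passed in S1 against scrambled, in S5 against untransfected and in the scrambled against the untransfected line (adjusted p = 0.0405, 0.0375 and 0.0338). Of its 2 dimmer probe sets, 1 passed in S4 against scrambled alone and the other in scrambled against untransfected alone. Vegfa, the main ligand that Nrp1 presents, was at 0.66, 0.71 and 0.57 against the scrambled line and did not pass (lowest limma adjusted p = 0.323). With the replicate block it passed in S1 and S4 against the scrambled line and in the scrambled against the untransfected line (adjusted p = 0.0377, 0.0322 and 0.0188). Kdr did not pass in any comparison.

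**Figure D5:**
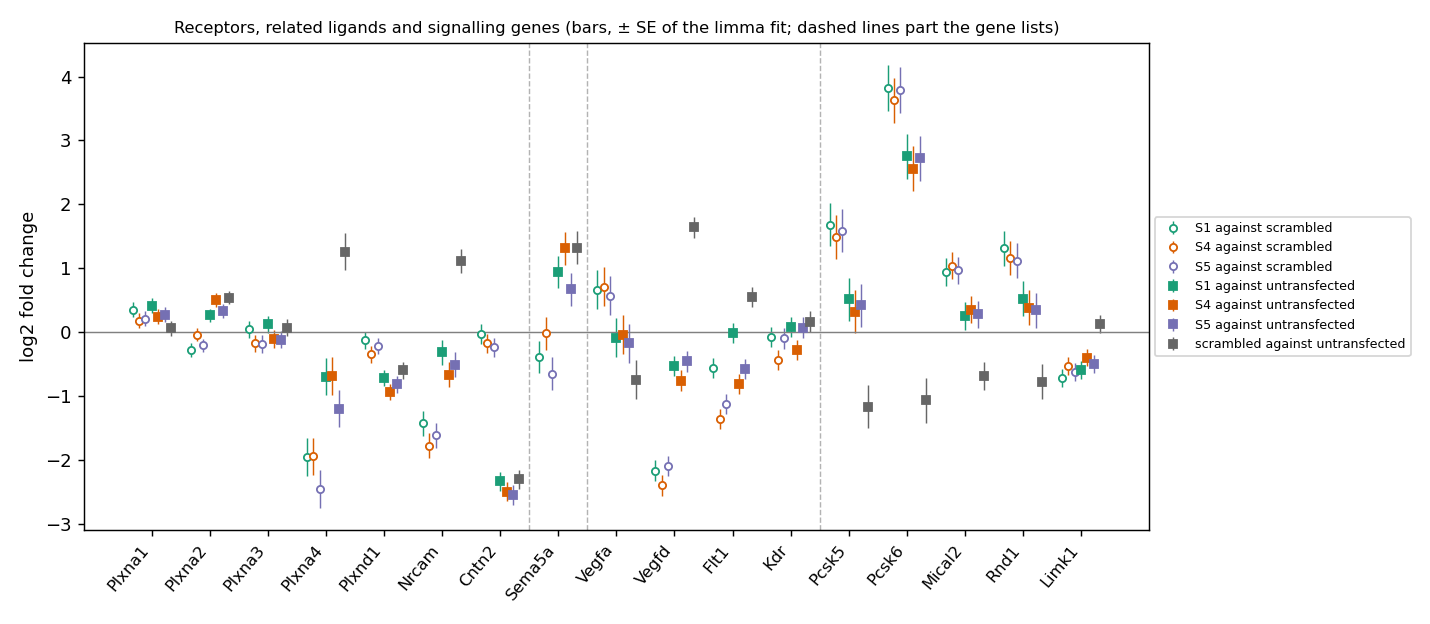
Log2 fold change with SE in 7 line comparisons for 17 receptors, ligands and signalling genes, with dashed lines between the 4 lists. Pcsk6 lies between 2.56 and 3.82 in all clone comparisons, and Plxna4, Nrcam and Vegfd are low in the clones against the scrambled line (open circles).

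Among 24 genes of semaphorin processing and intracellular signalling, Pcsk6, a proprotein convertase of the furin family, rose in all 6 comparisons of clones with control lines. It was at 1478 and 904 (S1), 1280.4 and 800 (S4), and 1397 and 919 (S5), against 73.8 and 90.5 in the scrambled line and 217 and 136 in the untransfected line. Its log2 fold change was 3.82, 3.63 and 3.79 against the scrambled and 2.75, 2.56 and 2.72 against the untransfected line (SE 0.36 each, highest limma adjusted p = 0.00894). In the scrambled against the untransfected line it was at -1.07 (limma adjusted p = 0.126, and adjusted p = 0.0297 with the replicate block). Pcsk5, a related convertase, rose by 1.68 in S1 and 1.59 in S5 against the scrambled line (limma adjusted p = 0.0354 and 0.0482), and S4 was at 1.49 (limma adjusted p = 0.0586, and 0.0411 with the replicate block). Of its other probe sets, 1 passed in all 3 clones against the scrambled line and in S1 against the untransfected line, and the other in none. Furin itself did not pass in any comparison.

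Downstream, Mical2, an actin-oxidising enzyme, rose in S4 against the scrambled line by 1.04 (limma adjusted p = 0.0400), and S1 and S5 were at 0.94 and 0.97 (limma adjusted p = 0.0530 and 0.0541, and 0.00681 and 0.00673 with the replicate block). Its second probe set passed in all 3 clones against the scrambled line and, lower, in the scrambled against the untransfected line, and its 2 dimmest in no comparison. Rnd1, a small GTPase that binds plexins, rose by 1.31 in S1 (limma adjusted p = 0.0401), with S4 and S5 at 1.16 and 1.12 (limma adjusted p = 0.0664 and 0.0768, and 0.0172 and 0.0202 with the replicate block). Limk1, the kinase of cofilin, fell by 0.72 in S1 against the scrambled line (limma adjusted p = 0.0297). With the replicate block Limk1 also passed in S5 against the scrambled and in S1 against the untransfected line (adjusted p = 0.0391 and 0.0418), Mical2 and Rnd1 in the scrambled against the untransfected line, where both were lower (adjusted p = 0.0176 and 0.0461), and Rasa1, a Ras-inactivating protein, in S1 against the scrambled line (adjusted p = 0.0316). Against the untransfected line the clones were at 0.25 to 0.35 for Mical2 and 0.34 to 0.52 for Rnd1, and neither passed.

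Rras, a small GTPase that plexins switch off, had its clones between the control lines as Nrp1 did. By mean, S4 was the highest clone for Rras and the lowest for Nrp1. Rras was highest in the untransfected and lowest in the scrambled line. It was lower in the scrambled than in the untransfected line, at -1.20 (limma adjusted p = 0.00214), higher in S1, S4 and S5 than in the scrambled line, at 0.65, 0.84 and 0.63 (limma adjusted p = 0.0275, 0.00994 and 0.0349), and lower in S1 and S5 than in the untransfected line, at -0.56 and -0.58 (limma adjusted p = 0.0457 and 0.0462). Mical1, related to Mical2, was at -0.98 in the scrambled against the untransfected line (limma adjusted p = 0.00404) and passed in 3 of the 6 clone comparisons, higher in S1 and S5 than in the scrambled line and lower in S4 than in the untransfected line. Farp1, an exchange factor of Rac, fell in all 4 transfected lines against the untransfected line, at -0.76 to -0.86 in the clones and -1.08 in the scrambled line (highest limma adjusted p = 0.0408), and its second probe set passed in the scrambled line alone. The kinase Fyn fell in S5 against the untransfected line, at -0.89 (limma adjusted p = 0.0496), and its dimmer probe set passed in all 3 clones against that line, at -0.64 to -0.80, and Dpysl5, of the collapsin response mediators, rose by 0.48 in the scrambled over the untransfected line (limma adjusted p = 0.0300). Between passages Vegfa rose by 0.48 and Dpysl3 fell by 0.63 at passage 43 (limma adjusted p = 0.0318 and 0.0165), the other 2 list genes called there. Both calls were likewise lost without any 1 of the clone arrays, with those of all probe sets. The second probe sets of Vegfa and Dpysl3 did not pass (limma adjusted p = 0.149 and 0.0899).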

How the data were processed

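RNA of 5 rat HSC-2 lines was biotin-labelled in one cycle and hybridised to Affymetrix arrays, per the labels' protocols. The deposited intensities are linear and floored at 20. They were made by the authors with RMA, per the submitters' processing notes, and whether they were returned from the log2 scale is not given in the sources used here. Log2 of the deposited intensities was taken here. The 31099 probe sets include 57 array controls, and 3522 more stood at the floor everywhere. Both kinds were dropped, which left 27520. Gene symbols came from the platform annotation, where 19202 tested probe sets had 1 symbol, 399 several and 7919 none. Each list gene was taken from its probe set with the highest mean.

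Lines were compared with limma 3.58.1 in R 4.3.3 on the 10 arrays (a coefficient for each line, leaving 5 residual degrees of freedom), eBayes and Benjamini-Hochberg adjustment over all probe sets at 0.05. Clones were compared by an F test, and passages with line as a block. The passage deviations of all 10 pairs of lines correlated, from 0.136 to 0.649, so the passage number pairs the arrays, and values with it as a replicate block are given for the named genes whose call changed and for the list counts. Alternatives were quantile normalization, a minimum mean log2 of 6, a floor of 32, another probe set per gene and leaving out each array.

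Members and lists were chosen with earlier results of these data known. Named list genes were up to 5 per list by mean change over the 6 comparisons of clones with control lines, among those that passed in at least 1 comparison, besides Plxnd1, Plxna1 to Plxna4, Vegfa, Kdr and Flt1; 3 genes per member were named by likeness, of which 1 is not reported here. Sema3b, Sema3f, Sema3g, Furin, Neto2, Sema4d, Sema6d, Sema6a, Rras, Rasa1, Mical1, Farp1, Fyn, Dpysl3 and Dpysl5, and the markers given, were named after their values were seen. The procedures were run on simulated data with noise drawn independently for each array. Those data lack the correlation of passage deviations between lines, so they say nothing on its effect.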

Additional observations from a re-analysis of the deposited data

Results flagged for a closer look

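For Sema3a and Sema3d the change between passages ran in opposite directions in clones and control lines, which brought them here. Sema3d was higher at passage 43 than at passage 42 in the clones (0.64 in S1, 0.47 in S4 and 0.64 in S5 on the log2 scale) and lower in the scrambled and the untransfected line, at -0.56 and -1.24. The change of the clones minus that of the control lines was 1.48 (SE 0.21, limma adjusted p = 0.277, unadjusted p = 0.000354). Sema3a changed by 0.30 in S1, 0.36 in S4 and 0.16 in S5, and by -0.46 and -0.25 in the scrambled and the untransfected line, a difference of 0.63 (SE 0.13, limma adjusted p = 0.416, unadjusted p = 0.00296). Neither passed the test of the difference, which was chosen after the data were seen and called 5 of 27520 probe sets, 0.0182%. Over all probe sets, 3.24% were up in all 3 clones and not up in either control line.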

How the results depend on the processing

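Of 672 recomputed log2 fold changes of the 8 probe sets, 628 moved by less than 1 residual SD. The sign turned in 14, all with a size of at most 0.17, and 12 moved by over 1.5 times, those of Sema3e in S1 without an S1 array and of Sema3d against the untransfected line without an array of that line. Under a replicate block on the passage number, calls over all probe sets were 2129, 1906 and 1845 for S1, S4 and S5 against scrambled, 2439, 1904 and 2103 against untransfected, 3602 for scrambled against untransfected and 25 among clones, against 1153, 1002, 948, 1205, 970, 999, 1679 and 9 without it. The block moved the pathway counts by over 1.5 times for S4 against scrambled (11) and S1 against untransfected (8). Without the line block 156 probe sets differed between passages, against 1520 with it. Leaving out 1 array gave 243 to 1206, 309 to 1095 and 228 to 958 probe sets for S1, S4 and S5 against scrambled, 216 to 2357, 257 to 1918 and 180 to 2136 against untransfected, 608 to 3224 for scrambled against untransfected, 4 to 8 among clones and 0 to 1698 between passages. Pathway genes called were then 2 to 8, 4 to 7 and 4 to 7 against scrambled, 1 to 6, 1 to 8 and 1 to 7 against untransfected, 5 to 12 for scrambled against untransfected and 0 to 4 between passages, where the full data gave 4. The lowest counts of each clone came without an array of that clone, which leaves that line with 1 array assumed to vary like the others. The cause was not tested. Other normalization, the higher floor, the filter on dim probe sets and another probe set per gene kept all counts within 1.5 times. Signal near the floor limits Hgf, Mfap4, Cntn2, Nrcam and the dimmer receptors, and Sema3a in the untransfected line.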
